A study of Mus musculus with 4 samples.

Results

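A set of 10 well-known long noncoding RNAs (lncRNAs) was examined in lung tissue carrying triple-negative breast cancer metastases, with and without treatment. They are Malat1, Neat1, H19, Meg3, Gas5, Snhg1, Epb41l4aos, Mir17hg, Pvt1 and Kcnq1ot1, chosen by gene name, and are 10 of the 56748 genes in the count table. Female BALB/cJ mice, 7 weeks of age, were injected through the tail vein with 2000000 cells of 4T1-FLuc, a mouse breast cancer line that expresses luciferase. All samples therefore carry the same tumor line and differ in treatment. The saline group (PBS in the treatment label) was compared with the ADC/cmLumiOpto group, with 2 samples in each. The ADC is an anti-CD276 antibody linked to mertansine (DM1), a microtubule inhibitor, and cmLumiOpto is an adeno-associated vector carried in antibody-coated exosomes. Its light-gated channel CoChR is placed in mitochondria under a cfos promoter and opens in the light of NLuc once ViviRen is given, so only cells in which that promoter works can express it. The ADC dose is 16 mg/kg in the labels, whose treatment field also has the unexplained term Olap, and 8 mg/kg in the methods. A treatment time of 3 weeks is given for the ADC/cmLumiOpto samples only. The methods tie the time of tissue collection to a loss of body weight, so the groups may differ in it. The labels describe tumor cells taken from the lung, and the methods describe dissociated lung tissue. No untreated or single-agent samples are compared here.

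Long noncoding RNAs are transcribed like messenger RNAs, and many but not all are spliced, but they act as RNA. Malat1 and Neat1 are neighbors that stay in the nucleus, where Malat1 collects in splicing speckles and the long form of Neat1 builds paraspeckles. H19, Meg3 and Kcnq1ot1 are imprinted, so each is made from only the maternal or the paternal copy. Gas5, Snhg1 and Epb41l4aos carry small nucleolar RNAs (snoRNAs) in their introns, Mir17hg is the precursor of the miR-17-92 oncogenic microRNA cluster, and Pvt1 lies beside Myc and is often co-amplified with it in cancer.

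Several of these RNAs are known through short sequences that they carry, and these are printed here to show what each transcript holds. Malat1 ends in a triple helix rather than in a poly(A) tail. The libraries were made from RNA bound to poly(T) beads, and whether Malat1 was held there through the A-rich tract near its mature end was not tested. The stretch below is from the GENCODE M21 transcript on GRCm38, at chr19:5795958-5796077 on the minus strand, and covers transcript positions 6596 to 6715 of 6983. Capitals mark the U-rich motifs and the A-rich tract that pair in the helix, and the longest run of A in it is 12 bases.
Malat1 3′ end: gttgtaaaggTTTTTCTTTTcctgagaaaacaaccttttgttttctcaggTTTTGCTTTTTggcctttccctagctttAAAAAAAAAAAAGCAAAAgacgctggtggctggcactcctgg

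snoRNA host genes typically begin transcription at a C followed by a run of pyrimidines, the 5′ terminal oligopyrimidine start that couples such RNAs to translation. The start listed for Snhg1 holds only CTC before an A, so its opening pyrimidine run is short. The start of Snhg1 is shown because Snhg1 had the lowest p of the 3 host genes studied. It is from RefSeq on GRCm38.p6, at chr19:8723237-8723536 on the plus strand, with 250 bases before the start in lower case and the first 50 transcribed bases in capitals.
Snhg1 start: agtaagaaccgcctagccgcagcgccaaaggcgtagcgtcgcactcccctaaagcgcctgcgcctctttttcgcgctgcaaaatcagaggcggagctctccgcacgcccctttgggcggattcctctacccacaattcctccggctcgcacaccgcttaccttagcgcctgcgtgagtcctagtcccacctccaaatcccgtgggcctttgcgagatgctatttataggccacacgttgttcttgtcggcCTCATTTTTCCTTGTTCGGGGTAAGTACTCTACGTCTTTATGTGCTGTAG

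Mir17hg and H19 are precursors of microRNAs, which are shown because neither the cluster nor miR-675 can be read from these libraries. The main mature arms are from RefSeq on GRCm38.p6, with the seed (bases 2 to 8), which pairs with target messages, in capitals. miR-17-5p and miR-20a-5p share the seed AAAGUGC, miR-19a-3p and miR-19b-3p share GUGCAAA, and miR-18a-5p and miR-92a-3p each have a seed of their own.
miR-17-5p: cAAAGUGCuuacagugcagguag
miR-20a-5p: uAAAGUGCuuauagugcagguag
miR-18a-5p: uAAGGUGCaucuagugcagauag
miR-19a-3p: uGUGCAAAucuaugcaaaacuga
miR-19b-3p: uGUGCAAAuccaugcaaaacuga
miR-92a-3p: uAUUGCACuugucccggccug
miR-675-5p (from H19): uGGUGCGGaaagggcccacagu
miR-675-3p (from H19): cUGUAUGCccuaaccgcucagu
All 7 hairpin genes of these microRNAs had 0 counts in all 4 samples, and the floor of 3 counts is equal to 0.146 to 0.202 CPM (counts scaled to library size), for counting error only. Short RNAs without poly(A) tails are not captured by this kind of library, so only the host transcripts are described below.

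Total counts were between 15263375 and 19675436 per sample. Replicates agreed across the 15320 genes tested, with Pearson's r of 0.973 in saline and 0.970 in ADC/cmLumiOpto, a correlation across genes. Marker genes were used to check the tissue. The 6 tumor epithelium markers summed to 2947 and 3310 CPM in saline and 2917 and 2847 CPM after treatment. These, Epcam, Krt7, Krt8, Krt18, Krt19 and Cdh1, are general epithelial genes, so tumor and lung epithelium cannot be told apart by them. Fibroblast markers summed to 5071 and 3466 CPM against 1722 and 1397 CPM, and alveolar epithelium markers to 1796 and 495 CPM against 6133 and 5258 CPM. Neutrophil markers summed to 1125 and 464 CPM in saline, to 1141 CPM in ADC/cmLumiOpto sample 1 and to 7853 CPM in ADC/cmLumiOpto sample 2, which stood apart from the other 3 in this respect. Macrophage markers summed to 2866 and 2193 CPM against 5581 and 3444 CPM. Of that sum, Lyz2 alone made up 1687 and 1128 CPM in saline and 4299 and 2447 CPM after treatment. Of the 6 macrophage markers, 4 had positive log2 fold changes and 2 had negative ones, Mrc1 (-0.98 ± 0.30) and Csf1r (-0.04 ± 0.31). Endothelial markers summed to 538 and 432 CPM against 485 and 734 CPM, and T cell markers to 33.4 and 11.7 CPM against 74.6 and 35.8 CPM. Markers of epithelial, endothelial, stromal and blood cells were thus detected in all samples, and no marker was at 0 in any sample. In bulk tissue, fewer cells of a type and less RNA per cell cannot be told apart.

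All 10 RNAs were detected in every sample and passed the filter on low counts. Neat1, Malat1 and Snhg1 were higher after ADC/cmLumiOpto and H19 was lower, and these 4 had an unadjusted p under 0.05 in edgeR's quasi-likelihood test. None passed the adjusted threshold of 0.05, nor did any of the 15320 genes tested (0.0%), and the smallest adjusted p of any gene was 0.116. At an unadjusted p under 0.05, 3 of the 10 were higher and 1 was lower, against 11.0% of all tested genes higher and 12.2% lower, or 23.2% in both directions. The 2 groups did not overlap for 6 of the 10, with 5 higher and 1 lower (H19). Over all tested genes, 28.1% were higher without overlap and 28.8% were lower, and for genes listed as lncRNA the shares were 31.3% and 13.7%. The median log2 fold change of the 10 was 0.79, beside 0.03 over all tested genes and 0.23 over the 824 tested genes listed as lncRNA. Of those lncRNA genes, 11.0% were higher and 2.79% were lower at an unadjusted p under 0.05. The median of the 10 was 0.34 without ADC/cmLumiOpto sample 2 and 0.42 without saline sample 1.

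Whether these RNAs passed the adjusted threshold depended on the test. With the edgeR exact test on the same counts, H19 (adjusted p = 3.62e-05), Malat1 (0.00169), Neat1 (0.0204) and Snhg1 (0.0343) passed, with 7.46% of all tested genes. With DESeq2, H19 (adjusted p = 1.91e-06), Malat1 (2.28e-04) and Snhg1 (0.0283) passed, with 8.69% of all tested genes. Without the filter on low counts, the same 4 as with the exact test passed, with 8.84% of the genes then tested, and with a replicate block H19, Malat1 and Neat1 passed, with 3.96%. With 2 samples in a group, an exact permutation test cannot give a p below 0.333, so such a test of a single RNA cannot reach the threshold.

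**Figure D1:**
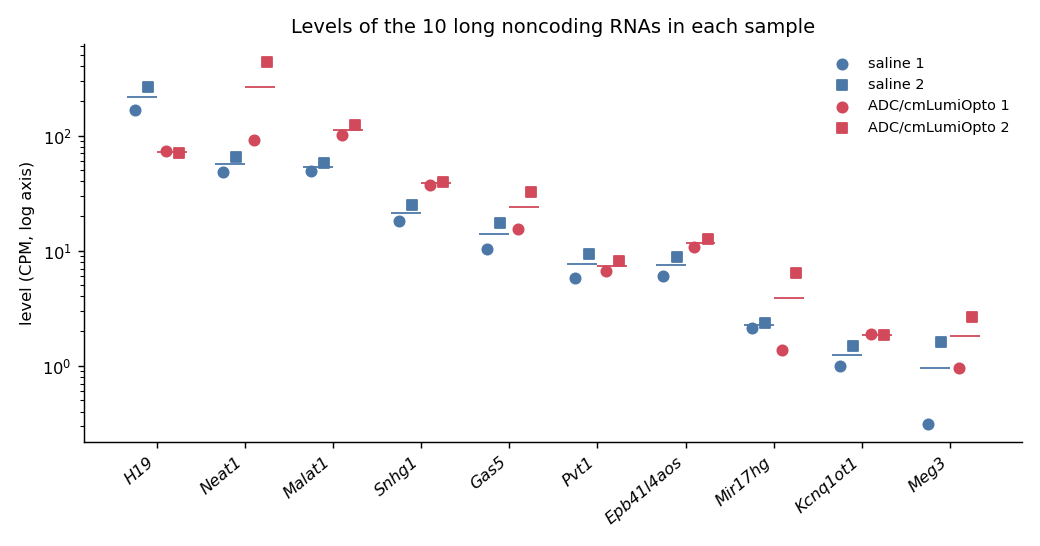
Level of each RNA in each sample (CPM, log axis), with genes ordered by their mean in saline (circles and squares, samples 1 and 2; blue, saline; red, ADC/cmLumiOpto; short lines, group means). H19 in saline (167 and 265 CPM) and Neat1 in ADC/cmLumiOpto sample 2 (436 CPM) are at the top, and Meg3 and Kcnq1ot1 are near 1 CPM.

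The RNAs covered a wide range of levels. Per kilobase of gene length, H19 was the most abundant in every sample, at 63.5 and 101 CPM per kb in saline and 27.9 and 27.1 CPM per kb after treatment. Malat1 was next by group mean, at 7.11 to 8.29 CPM per kb in saline and 14.5 to 17.6 CPM per kb after treatment. Snhg1 followed, at 6.0 to 8.22 CPM per kb in saline, a range that overlapped that of Malat1. Epb41l4aos (5.22 to 7.66 CPM per kb in saline) also overlapped both. Gas5 (2.61 to 4.33) and Neat1 (2.26 to 3.05 CPM per kb in saline) overlapped each other and were below Epb41l4aos. Mir17hg (0.601 and 0.667) and Pvt1 (0.465 and 0.763 CPM per kb in saline) were lower and did not differ beyond their spread. Meg3 (0.0164 and 0.0848) and Kcnq1ot1 (0.0107 and 0.0159 CPM per kb in saline) were at the bottom. The order by group mean after treatment was the same for 7 of the 10, and the others were Neat1, which went from rank 6 to rank 4, and Epb41l4aos and Gas5, each a rank lower. The table's length of Kcnq1ot1 is its whole unspliced span of 93092 bases.

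Malat1 (ENSMUSG00000092341), the speckle RNA, lies on chromosome 19 at 5845717 to 5852704 on the minus strand, in the positions of the table, whose build the submitters' processing notes name as mm39. It had 795 and 859 counts in saline and 1788 and 2515 counts after treatment. In CPM these were 49.7 and 57.9 against 101 and 123, so both treated samples were above both saline samples. The means were 53.8 ± 5.80 and 112 ± 15.1 CPM (SD, n = 2), a 2.08-fold higher mean. This is a log2 fold change of 1.06 ± 0.18 (SE), with an adjusted p of 0.116. Of the 10 RNAs, Malat1 had the smallest SE, and its log2 fold change stayed between 0.91 and 1.19 when any 1 sample was left out.

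Neat1 (ENSMUSG00000092274, chromosome 19, 5874736 to 5895898, minus strand) had the largest log2 fold change of the 10. It was at 47.9 and 64.6 CPM in saline and at 92.4 and 436 CPM after treatment (766, 958, 1631 and 8938 counts). The treated samples were again above both saline samples, but they differed 4.72-fold from each other, more than the saline samples did (1.35-fold). Its log2 fold change was 2.23 ± 0.65 (SE), with an adjusted p of 0.137. Without ADC/cmLumiOpto sample 2 it was 0.71, with an adjusted p of 0.154, and without ADC/cmLumiOpto sample 1 it was 2.96 and passed (adjusted p = 0.0335), as did 0.0314% of the genes tested. ADC/cmLumiOpto sample 2 also held the high neutrophil sum of 7853 CPM, to which S100a8, S100a9 and Retnlg contributed most. All 6 neutrophil markers were higher at an unadjusted p under 0.05, and 3 of the 6 did not overlap between the groups. The part of neutrophil RNA in the Neat1 level was not tested. Per kilobase, Neat1 was at 0.318 and 0.368 of Malat1 in saline and at 0.301 in ADC/cmLumiOpto sample 1, whereas in sample 2 it was at 1.17 of Malat1. The ratio of the neighbors was thus apart only in that sample.

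**Figure D2:**
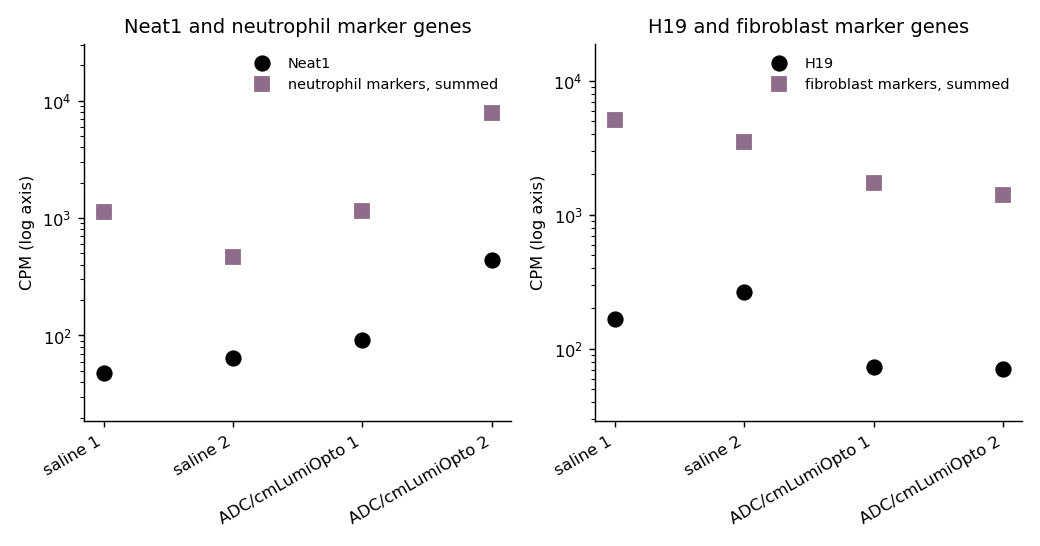
Level in each sample (CPM, log axis) of Neat1 beside the sum of 6 neutrophil markers (left) and of H19 beside the sum of 6 fibroblast markers (right). Neat1 and the neutrophil sum are both highest in ADC/cmLumiOpto sample 2, and H19 and the fibroblast sum are both lower in the 2 treated samples.

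Frmd8, a gene for an iRhom-binding protein that lies 3.83 kb beyond Neat1, had a log2 fold change of -0.04 ± 0.19, whose sign turned under other scalings. Frmd8os, which overlaps Neat1 on the opposite strand, had 0, 0, 6 and 2 counts, and reads in the overlap cannot be told apart by strand. The count table cannot separate the short, polyadenylated form of Neat1 from the long form that builds paraspeckles.

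Genes for the proteins that work with these RNAs mostly had negative log2 fold changes, 13 of 14 for paraspeckles and 9 of 12 for splicing speckles, beside 48.0% of all tested genes. Of the 14 paraspeckle genes, 0 were higher and 6 were lower at an unadjusted p under 0.05, with a median log2 fold change of -0.37. Ewsr1, an RNA-binding protein, was at 250 and 255 CPM in saline and at 153 and 176 CPM after treatment (log2 fold change -0.62 ± 0.16, adjusted p = 0.123). Hnrnpa1, a splicing regulator, was also lower without overlap (-0.58 ± 0.16). Nono and Sfpq, the proteins that bind Neat1 to form the paraspeckle core, had log2 fold changes of -0.48 ± 0.16 and -0.35 ± 0.18. Of the 12 splicing speckle genes, 1 was higher and 4 were lower at an unadjusted p under 0.05, with a median of -0.32. Srrm2, a scaffold of the speckle, was at 369 and 423 CPM in saline and at 189 and 260 CPM after treatment (-0.82 ± 0.21), and Srrm1 (-0.80 ± 0.21) and Rnps1 (-0.68 ± 0.17) were also lower. None of these passed the adjusted threshold. The paraspeckle median was -0.37 without saline sample 2 and -0.44 without saline sample 1. Fewer of the 14 were then lower at an unadjusted p under 0.05, as were fewer of all tested genes. Across the tested genes, log2 fold change and gene length had a Spearman's rho of -0.34, a description over genes that share the same 4 libraries. With the gene length trend removed, the medians were -0.27 for paraspeckles and -0.17 for splicing speckles, and Srrm2 was at -0.51. Sfpq was at -0.17 without ADC/cmLumiOpto sample 1.

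H19 (ENSMUSG00000000031, chromosome 7, 142129262 to 142131886, minus strand) is abundant in the embryo, silenced in most adult tissues and often re-expressed in tumors. It had the highest level of the 10 per kilobase, and in CPM the highest in saline only, and was the only RNA that was lower without overlap. It was at 167 and 265 CPM in saline and at 73.3 and 71.1 CPM after treatment (2668, 3929, 1294 and 1458 counts). The saline samples differed 1.59-fold and the treated samples were nearly equal. The means were 216 ± 69.3 and 72.2 ± 1.58 CPM (SD, n = 2), a 2.99-fold higher mean in saline. Its log2 fold change was -1.58 ± 0.25 (SE), with an adjusted p of 0.116, at percentile 0.790 of the genes tested. With any 1 sample left out it was between -1.89 and -1.20, and without saline sample 1 it passed the adjusted threshold (adjusted p = 0.0170), as did 1.34% of the genes tested. Fibroblast markers were also lower, with all 6 at an unadjusted p under 0.05, 5 of the 6 without overlap, and sums of 3466 to 5071 CPM against 1397 to 1722 CPM. Markers listed for tumor epithelium, which lung epithelium may share, were at 2947 to 3310 CPM in saline and 2847 to 2917 CPM after treatment. Alveolar epithelium markers were at 495 to 1796 CPM in saline and 5258 to 6133 CPM after treatment. The part of these cell types in the H19 level was not tested.

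Igf2, the growth factor gene that shares the H19 control region and is made from the opposite parental copy, had 1 and 5 counts in saline and 0 in both treated samples, too few to be tested. Mrpl23, a mitochondrial ribosomal protein gene 34.8 kb from H19, was at 41.1 and 43.2 CPM in saline and at 67.3 and 49.8 CPM after treatment (log2 fold change 0.47 ± 0.20, adjusted p = 0.214, and 0.24 without ADC/cmLumiOpto sample 1). Tspan32, a leukocyte tetraspanin gene 427 kb to the other side, had 9 and 4 counts in saline and 37 and 17 counts after treatment (1.78 ± 0.74, adjusted p = 0.216, and 0.98 without ADC/cmLumiOpto sample 1).

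Meg3 (ENSMUSG00000021268, chromosome 12, 109506879 to 109538165, plus strand) is a maternally expressed RNA that is lost in many tumors. It was the most variable of the 10, with 5 and 24 counts in saline and 17 and 54 counts after treatment. In CPM these were 0.313 and 1.62 against 0.963 and 2.63, so the groups overlapped, and the saline samples differed 5.18-fold. The log2 fold change of 0.91 ± 0.86 (SE) had an adjusted p of 0.553 and was 0.0021 without ADC/cmLumiOpto sample 2 and 2.50 without saline sample 2. Its partners in the same imprinted cluster were also low. Dlk1, the paternally expressed NOTCH ligand gene, had 3, 3, 4 and 0 counts, and Rian, a maternally expressed snoRNA host, had 74 and 75 counts in saline and 54 and 88 counts after treatment (-0.39 ± 0.37). No difference in Meg3 beyond the spread between samples was detected.

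Kcnq1ot1 (ENSMUSG00000101609, chromosome 7, 142757195 to 142850286, minus strand) is transcribed from within Kcnq1 and silences the neighboring genes on the paternal copy. It had 16 and 22 counts in saline and 33 and 38 counts after treatment, or 1.00 and 1.48 CPM against 1.87 and 1.85 CPM. The treated samples were above both saline samples, but the log2 fold change of 0.58 ± 0.50 (SE) had an adjusted p of 0.511, and it was 1.17 with the gene length trend removed (adjusted p = 0.251). Kcnq1, a potassium channel gene that overlaps it on the other strand, had 59 and 47 counts in saline and 84 and 113 counts after treatment (0.58 ± 0.35). The strand used in counting is not given in the sources used here, so reads of the overlapping pair cannot be told apart. Cdkn1c, the cell cycle inhibitor that Kcnq1ot1 silences, was at 5.38 and 6.34 CPM in saline and at 7.20 and 14.5 CPM after treatment (0.89 ± 0.40, adjusted p = 0.239), and its log2 fold change was 0.29 without ADC/cmLumiOpto sample 2. Phlda2, a growth-restraining gene of the same cluster, had a log2 fold change of 0.84 ± 0.45, which was 0.36 without saline sample 1 and 1.52 without saline sample 2, and Tssc4 had 0.06 ± 0.18. Of 17 imprinted genes listed beside the 3 RNAs, 10 could be tested, and 0 were higher and 0 were lower at an unadjusted p under 0.05, with a median of 0.25. The closest tested coding genes on either side of Meg3, both more than 400 kb away, had log2 fold changes of -0.05 ± 0.67 (Begain) and -0.24 ± 0.16 (Ppp2r5c).

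The exons of snoRNA hosts such as Gas5, Snhg1 and Epb41l4aos are spliced into RNAs with little coding capacity, usually degraded by nonsense-mediated decay. The snoRNAs released from their introns guide the modification of ribosomal RNA. In the table, 10 snoRNA genes lie within Gas5, 8 within Snhg1 and 1 within Epb41l4aos on the same strand, and all had 0 counts in all samples. Summed over the 3 hosts, the level was 34.6 and 51.0 CPM in saline and 63.5 and 84.6 CPM after treatment, with no overlap.

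Snhg1 (ENSMUSG00000108414, chromosome 19, 8700801 to 8703811, plus strand) had 289 and 367 counts in saline and 658 and 811 counts after treatment. These were 18.1 and 24.7 CPM against 37.3 and 39.5 CPM, a 1.80-fold higher mean with no overlap. The log2 fold change was 0.84 ± 0.21 (SE), with an adjusted p of 0.123, and it was between 0.62 and 1.09 with any 1 sample left out. Slc3a2, a gene for the heavy chain of an amino acid transporter whose span ends 0.068 kb before Snhg1 in the table, was at 222 and 202 CPM in saline and at 250 and 215 CPM after treatment (0.13 ± 0.17). Wdr74, a ribosome assembly gene 9.38 kb to the other side, had 0.12 ± 0.17.

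Gas5 (ENSMUSG00000053332, chromosome 1, 160861992 to 160866116, plus strand) accumulates in cells whose growth is arrested. It was at 10.4 and 17.3 CPM in saline and at 15.5 and 32.5 CPM after treatment (167, 257, 274 and 666 counts), so ADC/cmLumiOpto sample 1 was within the range of saline. The log2 fold change was 0.79 ± 0.41 (SE) with an adjusted p of 0.290, and 0.16 without ADC/cmLumiOpto sample 2. Zbtb37, a zinc finger gene that overlaps Gas5 on the opposite strand, had 139 and 194 counts in saline and 80 and 108 counts after treatment, and reads in the overlap cannot be told apart. Rc3h1, the Roquin-1 gene 59.4 kb away, had a log2 fold change of -0.41 ± 0.18.

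Epb41l4aos (chromosome 18, 33927889 to 33929050, plus strand) lies beside Epb41l4a and was at 6.06 and 8.90 CPM in saline and at 10.7 and 12.5 CPM after treatment (97, 132, 189 and 257 counts). The groups did not overlap, and the log2 fold change was 0.64 ± 0.31 (SE) with an adjusted p of 0.265. With the gene length trend removed it was 0.34 (adjusted p = 0.577). Epb41l4a, a FERM-domain protein gene 0.330 kb away, had 41 and 24 counts in saline and 99 and 133 counts after treatment. Its log2 fold change of 1.53 ± 0.40 (adjusted p = 0.123) was above that of Epb41l4aos. Nrep, the next tested coding gene on the other side, had -0.71 ± 0.21.

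Other snoRNA hosts were compared with the 3. Of 17 listed, 16 were found and 13 could be tested, and 5 were higher and 0 were lower at an unadjusted p under 0.05. Their median log2 fold change was 0.66, with a range of -0.39 to 2.20. Snhg12 was at 7.94 and 8.09 CPM in saline and at 15.1 and 16.0 CPM after treatment (0.96 ± 0.25, adjusted p = 0.123). Snhg15 (1.20 ± 0.37) and Zfas1 (0.66 ± 0.22) also did not overlap. Without ADC/cmLumiOpto sample 2, the median was 0.36 over 12 hosts, and without saline sample 1 it was 0.62 over 14. In both cases fewer hosts were higher at an unadjusted p under 0.05 than with all samples. The other two of the 5, Snhg20 (1.87 ± 0.71) and Snhg14 (2.20 ± 0.89), are named after their values were seen, and the saline counts of Snhg14 were only 1 and 5. Snhg5 was on the other side of 0, at 13.9 and 29.8 CPM in saline and at 13.0 and 20.4 CPM after treatment (-0.39 ± 0.40), and was also named after its values were seen. Of 10 nonsense-mediated decay factors, 0 were higher and 1 was lower at an unadjusted p under 0.05, with a median of -0.31, or -0.11 with the gene length trend removed. That 1 was Smg6, the endonuclease of the pathway (-0.68 ± 0.16, adjusted p = 0.123). Smg8, a subunit of the Smg1 kinase complex, had -0.40 ± 0.18, and Upf1, the central helicase, had -0.10 ± 0.18.

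**Figure D3:**
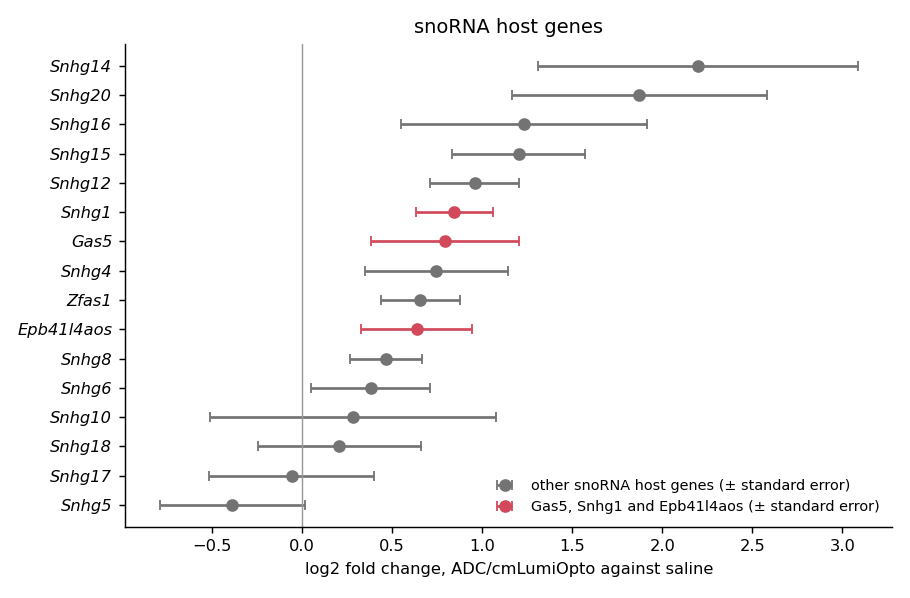
Log2 fold change of ADC/cmLumiOpto against saline for Gas5, Snhg1 and Epb41l4aos (red) and the 13 other snoRNA host genes that could be tested (gray), with standard errors. The 3 lie between 0.64 and 0.84, near the median of 0.66 of the others, and 2 of the others are below 0.

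Mir17hg (ENSMUSG00000089726, chromosome 14, 115280311 to 115284159, plus strand) is transcribed under MYC and E2F control. It had 34 and 35 counts in saline and 24 and 130 counts after treatment, or 2.13 and 2.36 CPM against 1.36 and 6.34 CPM. The 2 saline samples were alike, and the 2 treated samples lay on either side of them and differed 4.66-fold. The log2 fold change of 0.79 ± 0.71 (SE) had an adjusted p of 0.536, and it was -0.72 without ADC/cmLumiOpto sample 2, so no direction can be given. The closest tested coding genes were over 1000 kb away, with log2 fold changes of -0.36 ± 0.16 (Tpm3-rs7) and 0.22 ± 0.20 (Tgds).

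Pvt1 (ENSMUSG00000097039, chromosome 15, 61909817 to 62249945, plus strand) was at 5.75 and 9.44 CPM in saline and at 6.63 and 8.09 CPM after treatment (92, 140, 117 and 166 counts), with both treated samples inside the range of saline. The log2 fold change was -0.04 ± 0.35 (SE) with an adjusted p of 0.957, and its sign turned under other scalings, so no direction is given. Myc, 47.6 kb before Pvt1, was at 132 and 213 CPM in saline and at 82.6 and 129 CPM after treatment. Its groups were close but did not overlap (-0.71 ± 0.30, adjusted p = 0.225). The log2 fold change of Myc was -0.32 without saline sample 2, -0.42 without ADC/cmLumiOpto sample 1 and -1.07 without ADC/cmLumiOpto sample 2. Cyrib, a regulator of RAC1 signaling and the next tested gene after Pvt1, had -0.05 ± 0.15. Of 18 MYC genes and growth targets, 2 were higher and 2 were lower at an unadjusted p under 0.05, with a median of 0.07. Over all tested genes, 11.0% were higher and 12.2% were lower, so the list was near these shares. Cad, an enzyme of pyrimidine synthesis, had -0.68 ± 0.17, Ncl, the nucleolar protein nucleolin, had -0.49 ± 0.16, and Mycl, a relative of Myc, had 1.15 ± 0.42. Ncl was at -0.23 with the gene length trend removed, and Mycl at 0.73 without ADC/cmLumiOpto sample 1. With 1 sample left out, the median of the 18 was between -0.11 and 0.07. Without saline sample 2, fewer of them had an unadjusted p under 0.05, as did fewer of all tested genes.

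**Figure D4:**
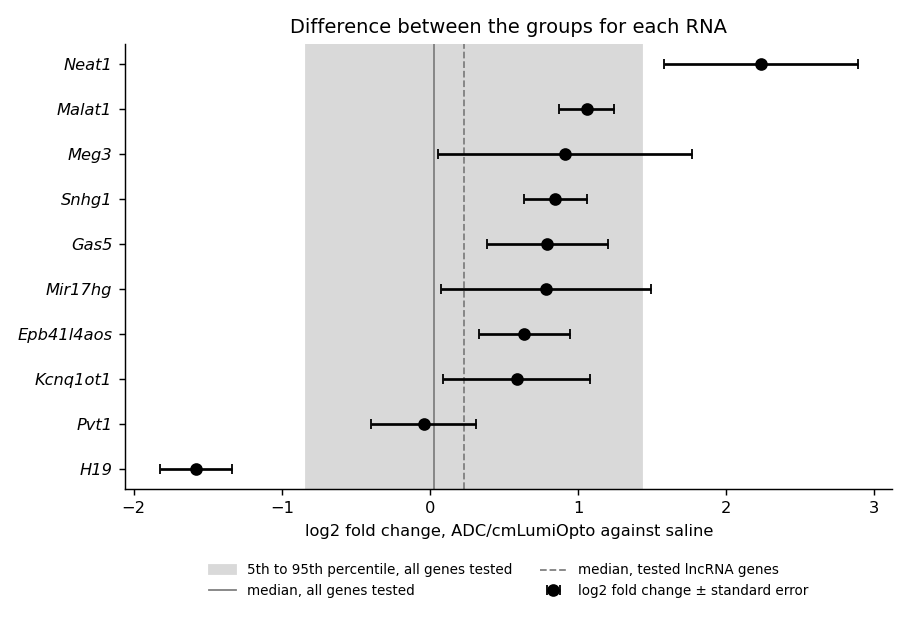
Log2 fold change of ADC/cmLumiOpto against saline for each of the 10 RNAs, with standard errors (gray band, 5th to 95th percentile of the 15320 genes tested, -0.84 to 1.43; solid line, their median; dashed line, median of the tested lncRNA genes). Neat1 (2.23) is above the band, H19 (-1.58) is below it, and the other 8 are within it.

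Further lncRNAs with known roles were listed for comparison. Of 17, 16 were found and 13 could be tested, with 3 higher and 1 lower at an unadjusted p under 0.05 and a median log2 fold change of 0.69. Xist, which silences the second X chromosome in female cells, was at 18.9 and 25.3 CPM in saline and at 35.1 and 63.3 CPM after treatment (1.15 ± 0.31, adjusted p = 0.126). Fendrr, an RNA of lung and heart mesoderm, was at 2.31 and 2.36 CPM in saline and at 3.63 and 11.0 CPM after treatment (1.64 ± 0.57). Tug1, a widely expressed RNA, was at 159 and 141 CPM in saline and at 103 and 109 CPM after treatment (-0.50 ± 0.16). The count table lists Tug1 as protein-coding, so it is not among the tested genes listed as lncRNA. The remaining RNA at an unadjusted p under 0.05 was Lockd, beside Cdkn1b, with 1.18 ± 0.42, named after its values were seen. Without ADC/cmLumiOpto sample 2, Xist was at 0.66 and Fendrr at 0.63, neither with an unadjusted p under 0.05. With the gene length trend removed, Tug1 was at -0.25 and no longer had one, and 4 of the 13 were higher and 0 were lower. Alveolar epithelium markers, 9 of 10 of which were higher at an unadjusted p under 0.05, and T cell markers, 2 of 6 of which were, differed between the same samples, and their part in these levels was not tested. Reads of mitochondrial genes made up 1.13% and 1.17% of counts in saline and 2.09% and 1.84% after treatment.

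H19, Malat1, Neat1 and Snhg1 each kept an unadjusted p under 0.05 with any 1 sample left out, and of these 4 only the size of Neat1 moved more than 1.5-fold on the log2 scale. For Meg3, Gas5 and Mir17hg, the size rested on ADC/cmLumiOpto sample 2, without which their log2 fold changes were 0.0021, 0.16 and -0.72. Without saline sample 1, those of Meg3, Gas5, Epb41l4aos and Kcnq1ot1 were 0.15, 0.46, 0.37 and 0.31.

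**Figure D5:**
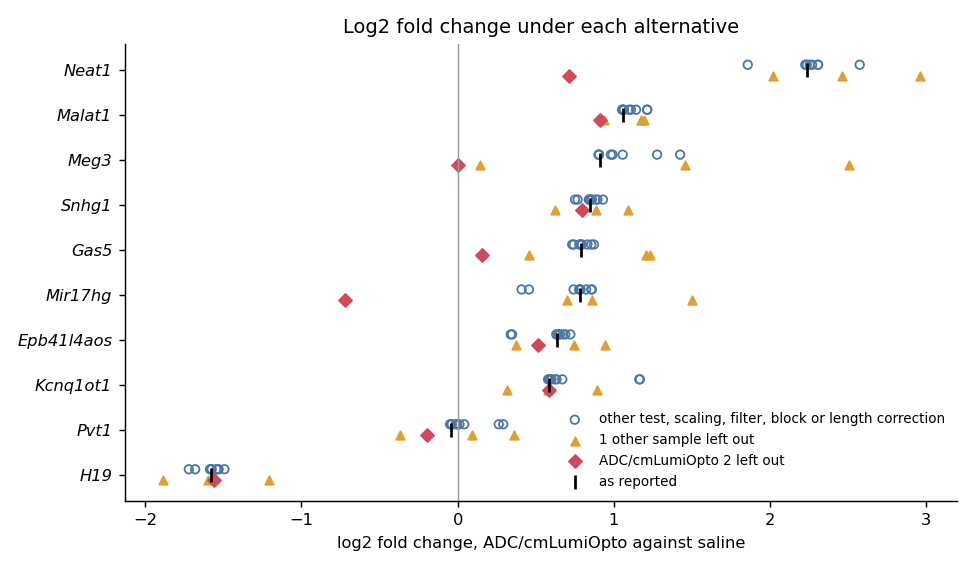
Log2 fold change of each RNA as reported (black mark), under another test, scaling, filter, replicate block or length correction (blue circles) and with 1 sample left out (orange triangles; red diamonds, ADC/cmLumiOpto sample 2 left out). H19 stays between -1.89 and -1.20 and Malat1 between 0.91 and 1.21, whereas Neat1 drops to 0.71 and Mir17hg to -0.72 without ADC/cmLumiOpto sample 2.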

How the data were processed

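Poly(T)-selected RNA from 4 samples, 2 of saline and 2 of ADC/cmLumiOpto, was sequenced on an Illumina HiSeq instrument. The study describes 4 samples per group, and the counts used here hold 2 per group. The authors deposited raw counts per gene, as whole numbers and without normalization, after alignment with HISAT2. The submitters' processing notes name mm39 and the paper names GRCm38. The gene positions of the table differ from GRCm38, and the counting program and its strand setting are not given in the sources used here. Groups were taken from the labels of the samples, and nothing in the table gives a batch. The labels do not say how many mice each sample came from, so p-values measure only the spread between these samples.

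The members and all gene lists were chosen with earlier results of these data known. For the tests, edgeR 4.0.16 was run in R 4.3.3. The filter was filterByExpr (minimum count 10, minimum total 15), and genes were scaled by TMM and tested by glmQLFit and glmQLFTest, with Benjamini-Hochberg adjustment over all 15320 genes and a threshold of 0.05. CPM used TMM-scaled library sizes, and log2 fold changes a prior count of 0.125. The SE is the log2 fold change divided by the square root of F. The 10 RNAs were named, as were their overlapping genes, the nearest tested coding genes, 10 partner genes fixed by name and the 3 genes with the smallest p of each of 7 lists, and 4 genes named by this rule are left out of the text. Alternatives were DESeq2 1.42.0, the edgeR exact test, other scalings and filters, a replicate block, removal of the gene length trend (lowess span 0.3) and each sample left out. The list summaries under the last 2 of these were added after seeing the data. The scripts were tested on simulated data.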

Additional observations from a re-analysis of the deposited data

How the results depend on the processing

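The log2 fold changes of 8 of the 10 RNAs kept their sign under every alternative in which they were tested, and those of Mir17hg and Pvt1 did not. Meg3 was not tested with at least 10 counts required in every sample. Genes with an adjusted p under 0.05, 0 as reported, numbered 1332 with DESeq2, 1143 with the exact test and 2259 without the filter (8.84% of 25563), and 3, 4 and 4 of them were among the 10 RNAs. Whether same-numbered samples are paired is not given in the labels. Their deviations from the group means correlated at 0.0985, which with 2 samples per group is only 1 comparison and cannot settle pairing. With a replicate block 607 genes passed (3.96%), among them 3 of the 10 RNAs (H19, Malat1 and Neat1), and with the block and the gene length trend removed 2 genes passed. With 1 sample left out, 0 to 218 genes and 0 to 1 of the 10 RNAs passed (H19 without saline sample 1 and Neat1 without ADC/cmLumiOpto sample 1). Genes at an unadjusted p under 0.05 then numbered 1687 to 3654, where 1687 was without saline sample 2. The sample left alone in its group was assumed to vary like the others, and more genes passed the filter in these fits. The cause of the other changes was not tested. The median of all tested genes was 0.11 with upper-quartile scaling and 0.10 without the filter.

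Signs turned as follows. Pvt1 was at 0.011 without TMM, 0.042 with upper-quartile scaling, 0.26 with the length trend removed, 0.29 with that and the block, and -0.37 to 0.36 with a sample left out, and Mir17hg was at -0.72 to 1.50 with a sample left out. Among the other genes named, upper-quartile scaling gave 0.038 for Begain, 0.036 for Cyrib and 0.048 for Frmd8. Removal of the length trend gave 0.241 for Cyrib, 0.035 for Frmd8, 0.047 for Rian, -0.175 for Tssc4 and -0.119 for Wdr74, and with the block 0.240, 0.045, 0.042, -0.175 and -0.118. Frmd8 was at 0.011 without TMM and 0.0024 with at least 10 counts in every sample. With a sample left out, the ranges were -0.49 to 0.30 for Begain, -0.11 to 0.0084 for Cyrib, -0.21 to 0.15 for Frmd8 and -0.26 to 0.040 for Upf1. Counts were lowest for Meg3 (5 to 54) and Kcnq1ot1 (16 to 38), so counting error is largest there.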
